A study of Mus musculus with 14 samples.

Results

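Interferon-stimulated genes are the genes that a cell turns on when interferon, a secreted antiviral signal, binds its receptor. A list of 43 such genes was followed on expression arrays of the mouse cell line 3T3-L1, a fibroblast line that can turn into fat cells, and 41 of the 43 were measured, among 18193 genes in all. For each gene the value is that of the probe set (a group of array probes read as 1 value) that is annotated to that gene alone and has the highest mean over the 14 arrays. Isg15 and Ifi44 have no probe set annotated to them alone and are not analysed here. The list holds 4 sensors of viral nucleic acid, 4 transcription factors, 15 direct antiviral effectors, 5 genes around the ubiquitin-like protein ISG15 (4 measured), 5 enzymes of ADP-ribosylation or ubiquitin transfer, 5 interferon-inducible GTPases and 5 other genes (4 measured).

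The arrays hold 4 groups of 3T3-L1 cells, and every cell population, controls included, had been transduced with a lentivirus. Adipocytes at day 7 of differentiation were labelled KD TP53INP2 (4 arrays, called knockdown) or Control (4 arrays), and preadipocytes at day 0, which is 2 days after the cells became confluent, were likewise KD TP53INP2 (3 arrays) or Control (3 arrays). Knockdown cells carried an siRNA sequence against TP53INP2, a protein that takes part in autophagosome formation and acts in the nucleus as a transcriptional coactivator, and control cells carried a scrambled sequence. Each population carries 1 viral construct, so any other lasting difference between the 2 populations and the knockdown itself cannot be told apart. Replicate numbers run from 1 in each group. Whether replicates are separate cultures is not stated in the labels, and the p-values therefore rest on a spread between arrays that may be technical. In RNA from a whole culture, fewer cells that express a gene and less RNA per cell cannot be told apart.

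The values are log2 expression values, so a difference of 1 is a 2-fold change. The targeted gene Trp53inp2 was at 10.20, 10.06, 10.01 and 10.45 in knockdown arrays 1 to 4 at day 7, against 11.74, 11.77, 11.78 and 11.70 in control arrays 1 to 4. At day 0 it was at 11.06, 11.14 and 11.66 in knockdown arrays and at 12.45, 12.53 and 12.38 in control arrays. The groups did not overlap on either day. The log2 fold change, knockdown over control, was -1.57 ± 0.13 (SE, adjusted p = 0.000111) at day 7 and -1.17 ± 0.15 (adjusted p = 0.00205) at day 0, in a linear model across all genes fitted with limma.

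Type I interferons bind the receptor chains IFNAR1 and IFNAR2, whose kinases JAK1 and TYK2 pass the signal to transcription factors. The complex ISGF3, which holds STAT2 and IRF9, binds the interferon-stimulated response element (ISRE) in promoters, whereas type II interferon acts through the gamma-activated site (GAS). Products of the induced genes detect viral RNA, block virus entry, translation and replication, or tune the signal itself, and fibroblast-like cells such as preadipocytes are known both to make type I interferon and to respond to it.

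To show the elements these genes are known for, the stretch of 250 bases before the gene start was searched for the ISRE core GAAANNGAAA and for GAS, TTCNNNGAA, on both strands. These windows come from RefSeq (build GRCm38.p6) and cover 34 of the 43 listed genes. The 9 without a window were not searched: Dhx58, Mx1, Mx2, Oas2, Parp14, Parp9, Rtp4, Usp18 and Zbp1. ISRE matches lay in 11 of the 34 windows (32.4%), against 3.46% of the 27025 genes in the same table, and GAS matches in 6 (17.6%), against 8.13%. Bst2 and Igtp held both, and in Bst2 the GAS match (136 to 128 bases before the start) overlapped an ISRE match (130 to 121 bases before it). A match is a run of letters and says nothing about binding in these cells. The windows are shown, 5′ to 3′ in the direction of transcription, for the 3 genes that held an ISRE match among the 12 whose knockdown differences are described array by array: Rsad2 at chr12:26456453-26456702 (minus strand), Gbp2 at chr3:142620413-142620662 (plus strand) and Oas3 at chr5:120777660-120777909 (minus strand). Capitals mark the ISRE match, which reads on the opposite strand in Rsad2 and Gbp2.
Rsad2: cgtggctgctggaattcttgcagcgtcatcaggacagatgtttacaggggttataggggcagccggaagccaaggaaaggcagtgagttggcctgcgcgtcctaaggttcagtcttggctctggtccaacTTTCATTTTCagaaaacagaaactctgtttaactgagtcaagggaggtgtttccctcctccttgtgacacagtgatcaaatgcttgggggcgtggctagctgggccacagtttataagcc
Gbp2: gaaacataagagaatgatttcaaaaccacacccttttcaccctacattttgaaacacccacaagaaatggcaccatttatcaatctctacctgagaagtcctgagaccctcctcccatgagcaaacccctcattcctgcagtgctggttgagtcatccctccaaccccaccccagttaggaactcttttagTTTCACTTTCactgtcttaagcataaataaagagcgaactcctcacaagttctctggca
Oas3: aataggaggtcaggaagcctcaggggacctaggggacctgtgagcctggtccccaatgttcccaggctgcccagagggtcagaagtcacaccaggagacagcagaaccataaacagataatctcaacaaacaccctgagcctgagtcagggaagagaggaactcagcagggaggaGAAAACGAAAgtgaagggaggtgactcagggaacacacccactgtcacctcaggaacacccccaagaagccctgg
The match ends 111 bases before the start of Rsad2, 50 before that of Gbp2 and 66 before that of Oas3. Members without a window, such as Mx1 and Zbp1, are left out of the medians that follow. Among measured members with a window, the 10 with an ISRE match had a median log2 fold change, knockdown over control, of -1.03 at day 7 and -0.81 at day 0, and the 22 whose window held none had -0.47 and -0.44. For GAS the order was the other way: the 6 with a match had -0.47 at day 7 and -0.44 at day 0, and the 26 without had -0.73 and -0.62. The 26 hold every measured gene with an ISRE match except Bst2 and Igtp, so the GAS comparison is not separate from the ISRE comparison. Neither difference was tested.

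Levels of the 41 genes together varied with the day of differentiation, between knockdown and control cells and with the replicate number. The mean over the 41 genes was 7.25, 7.29, 8.74 and 7.55 in knockdown arrays 1 to 4 at day 7, against 7.91, 7.94, 9.43 and 8.61 in control arrays 1 to 4. At day 0 it was 9.10, 9.23 and 9.71 in knockdown arrays and 9.91, 10.02 and 10.20 in control arrays. The knockdown array lay below the control array of the same number in 7 of 7 pairs, and at day 7 the number 3 array stood highest in both groups. That array held the highest value of its group for 41 of 41 genes in knockdown cells and for 39 of 41 in control cells.

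**Figure D1:**
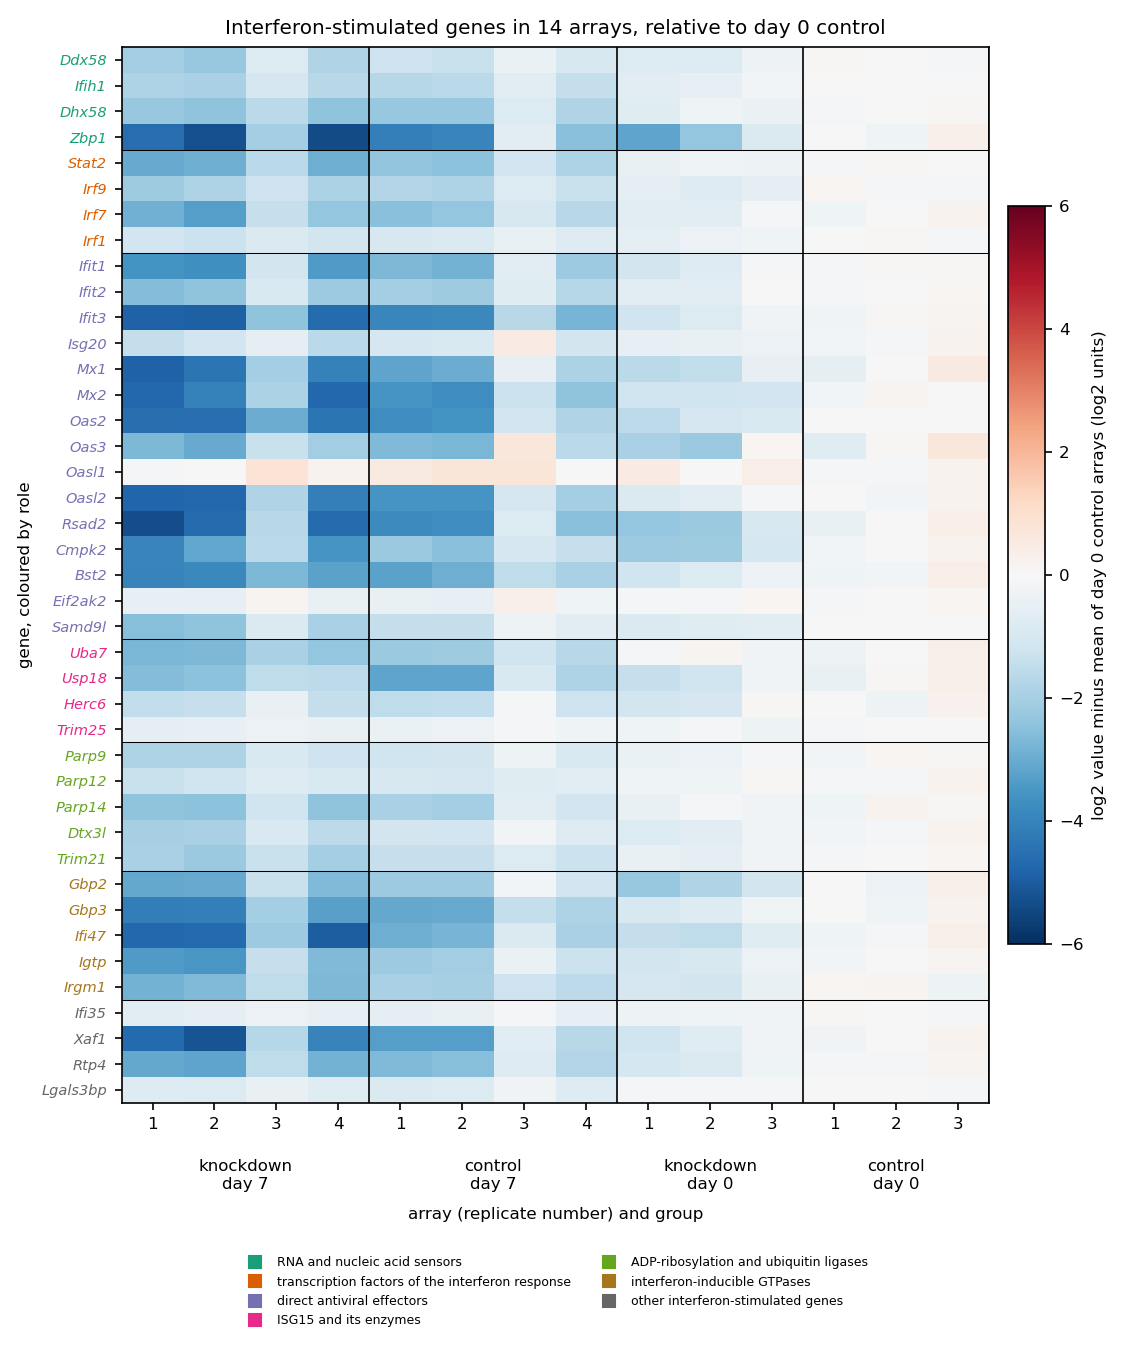
Each of the 41 measured genes (rows, grouped and coloured by role) in each of the 14 arrays (columns, by group and replicate number), as the log2 value minus the mean of the 3 day 0 control arrays. Blue is lower and red higher; at day 7 the number 3 array is the palest in both groups, and in each numbered pair the knockdown column is bluer than the control column for most genes.

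The number 3 arrays at day 7 also differed in markers of fat cells. Cidec, a lipid droplet protein of adipocytes, was at 11.10, 11.11, 8.89 and 11.04 in knockdown arrays 1 to 4 at day 7, against 9.69, 9.72, 6.67 and 7.26 in control arrays. Its day 0 values lay between 3.86 and 4.04 in knockdown arrays and between 3.15 and 4.03 in control arrays. Array 3 had the lowest Cidec level of its group at day 7, and the mean over the 5 measured adipocyte markers was lowest there too, at 9.93 in knockdown cells and 9.20 in control cells. Control array 4 of day 7 had nearly the same marker mean, 9.255. Its mean over the interferon-stimulated genes was 8.61, against 9.43 in control array 3. The number 3 arrays also had the lowest 3′ minus 5′ signal of the control probe sets, a measure of RNA quality, in both day 7 groups. For actin it was 2.70 in knockdown array 3 (2.98 to 3.37 in the other knockdown arrays) and 2.82 in control array 3 (3.22 to 3.48 in the others). For Gapdh it was 1.35 in knockdown array 3 (1.53 to 1.71 in the others) and 1.24 in control array 3 (1.73 to 1.79 in the others). The part of differentiation and of RNA quality in the level of the interferon-stimulated genes was not tested. Replicates 1 and 2 lay close together in every group. Over genes above the median level, their differences had an SD of 0.132 in knockdown and 0.097 in control cells at day 7 and of 0.188 and 0.201 at day 0, against 0.24 to 0.476 between other arrays of a group.

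**Figure D2:**
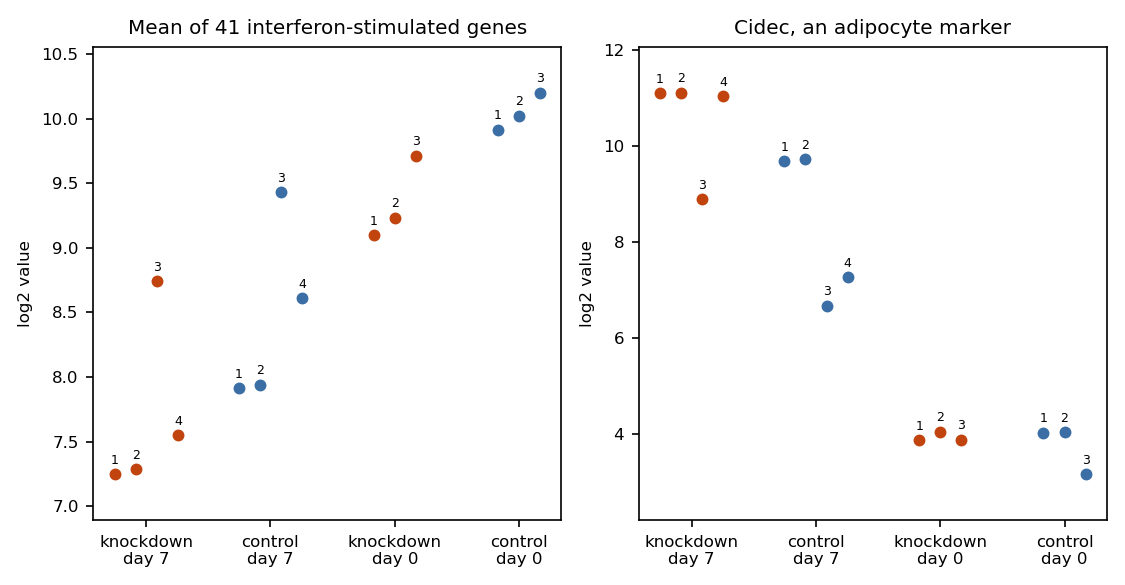
Left, the mean log2 value over the 41 interferon-stimulated genes in each array. Right, the log2 value of the adipocyte marker Cidec. Each point is an array, numbered by replicate, red for knockdown and blue for control; at day 7 the number 3 array has the highest interferon-stimulated gene mean (8.74 in knockdown and 9.43 in control cells) and the lowest Cidec level (8.89 and 6.67) of its group.

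Set against control cells, knockdown cells had lower levels of most interferon-stimulated genes on both days. The median log2 fold change over the 41 genes was -0.72 at day 7, against -0.02 over all genes, and -0.64 at day 0, against -0.05. At either day 40 of the 41 lay below 0, while 52.9% of all genes did at day 7 and 59.8% at day 0; the exceptions were Usp18 at day 7 and Oasl1 at day 0. With arrays shifted to a common median, 39 of the 41 lay below 0 at day 7 and 36 at day 0, and with quantile normalization 40 and 38. The shift moved the median of all genes at day 0 from -0.05 to 0.11, and the members' median less that of all genes was -0.59 either way. Taking each pair of arrays with the same number, 37, 37, 40 and 37 of the 41 genes were lower in the knockdown array of pairs 1 to 4 at day 7, with medians of -0.64, -0.65, -0.61 and -0.83. At day 0 it was 39, 39 and 40 genes, with medians of -0.86, -0.67 and -0.41. Over all genes the share lower in the knockdown array lay between 49.5% and 59.0% in these pairs. Of the 41 genes 34 were lower in every pair at day 7 (19.7% of all genes were), 39 in every pair at day 0 (28.0%), and 33 in all pairs of both days. For both days together no share of all genes is given.

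**Figure D3:**
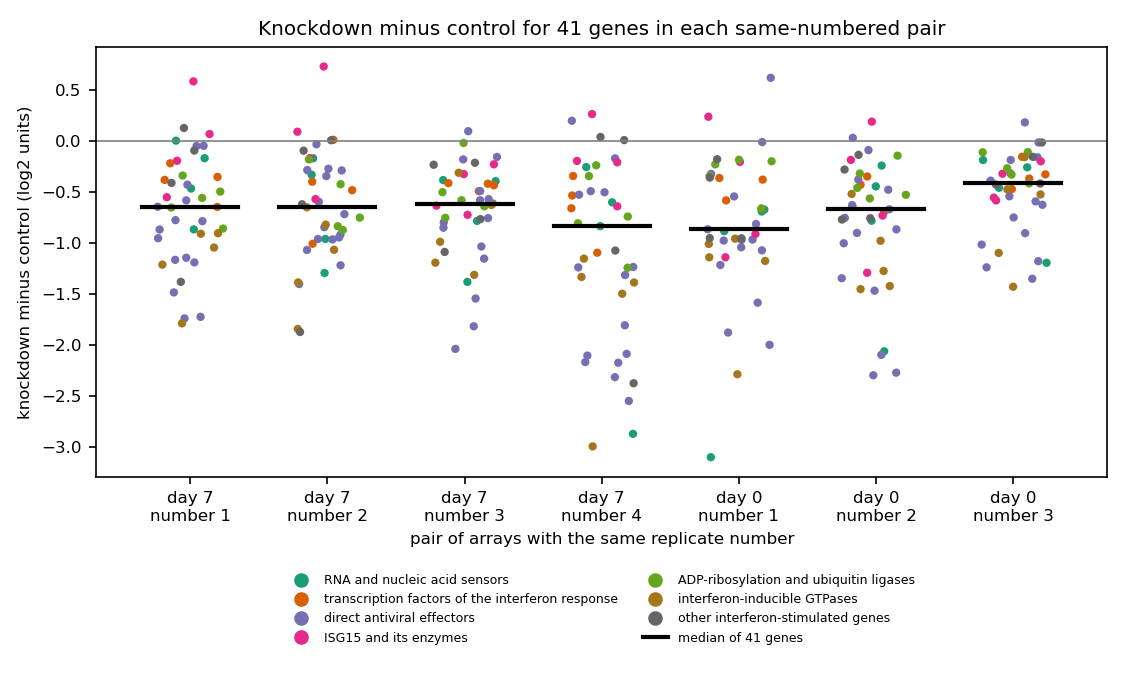
Knockdown minus control (log2 units) for each of the 41 genes, within each pair of arrays that share a day and a replicate number. Points are genes, coloured by role, and the black bar is the median of the 41; it lies below 0 in 7 of 7 pairs, between -0.86 and -0.41.

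How many of these differences passed a test depended on whether the pairs entered it. In the fit of 4 group means, 1 of the 41 genes, Trim21, was called lower at day 7 at an adjusted p under 0.05 (3.57% of all genes were called lower) and 0 higher, and at day 0 limma called 0 lower (1.34% of all genes). At an unadjusted p under 0.05, 18 were lower at day 7 (12.1% of all genes) and 7 at day 0 (11.0%). Same-numbered arrays of a day deviated together from their group means, with correlations across genes of 0.39 to 0.59 at day 7 and 0.19 to 0.33 at day 0. Arrays of different numbers were not compared in this way, so these correlations cannot show that the numbers mark pairs. With the pair as a block within each day, 29 of the 41 were called lower at day 7 (7.2% of all genes) and 12 at day 0 (3.4%), and 0 were called higher on either day. Of the 12 at day 0, 11 were also among the 29: Bst2, Cmpk2, Dtx3l, Gbp2, Ifi47, Igtp, Mx1, Rsad2, Rtp4, Samd9l and Zbp1. No share of all genes called on both days is given. With replicates 1 and 2 of each group averaged into 1 sample, the block left 8 calls at day 7 (Bst2, Dtx3l, Gbp2, Ifi47, Igtp, Mx1, Trim21 and Xaf1; 0.967% of all genes were called lower) and 0 at day 0 (0.022%).

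Single arrays weighed heavily on the counts at day 7. Without knockdown array 3 of day 7, the fit without a block called 24 members lower at day 7 (8.32% of all genes) and 1 at day 0 (1.95%). Without both number 3 arrays of day 7 it called 19 lower at day 7 (6.68% of all genes) and 6 at day 0 (2.81%). With the pair block and without both, 25 were called lower at day 7 (7.1%) and 13 at day 0 (3.02%). Without control array 3 of day 7, 0 were called lower at day 7 (2.09% of all genes), and the median log2 fold change at day 7 was -0.41, with 36 of 41 genes below 0. The call of Trim21 was also lost without any other array except knockdown array 3 of day 0, with the lowest adjusted p of a member between 0.0561 and 0.139. At day 7 no gene had all knockdown arrays below all control arrays (6.96% of all genes had), and the number 3 knockdown array lay above control arrays 1 and 2 for 41 of the 41 genes. At day 0, 26 of the 41 genes did not overlap, with every knockdown array below every control array (15.7% of all genes). RNA quality moved with the groups at day 0: the 3′ minus 5′ signal of the actin control probe sets was 2.74 to 3.23 in knockdown arrays and 3.33 to 3.76 in control arrays, and at day 7 it was 2.70 to 3.37 and 2.82 to 3.48. Its part in the day 0 differences was not tested.

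**Figure D4:**
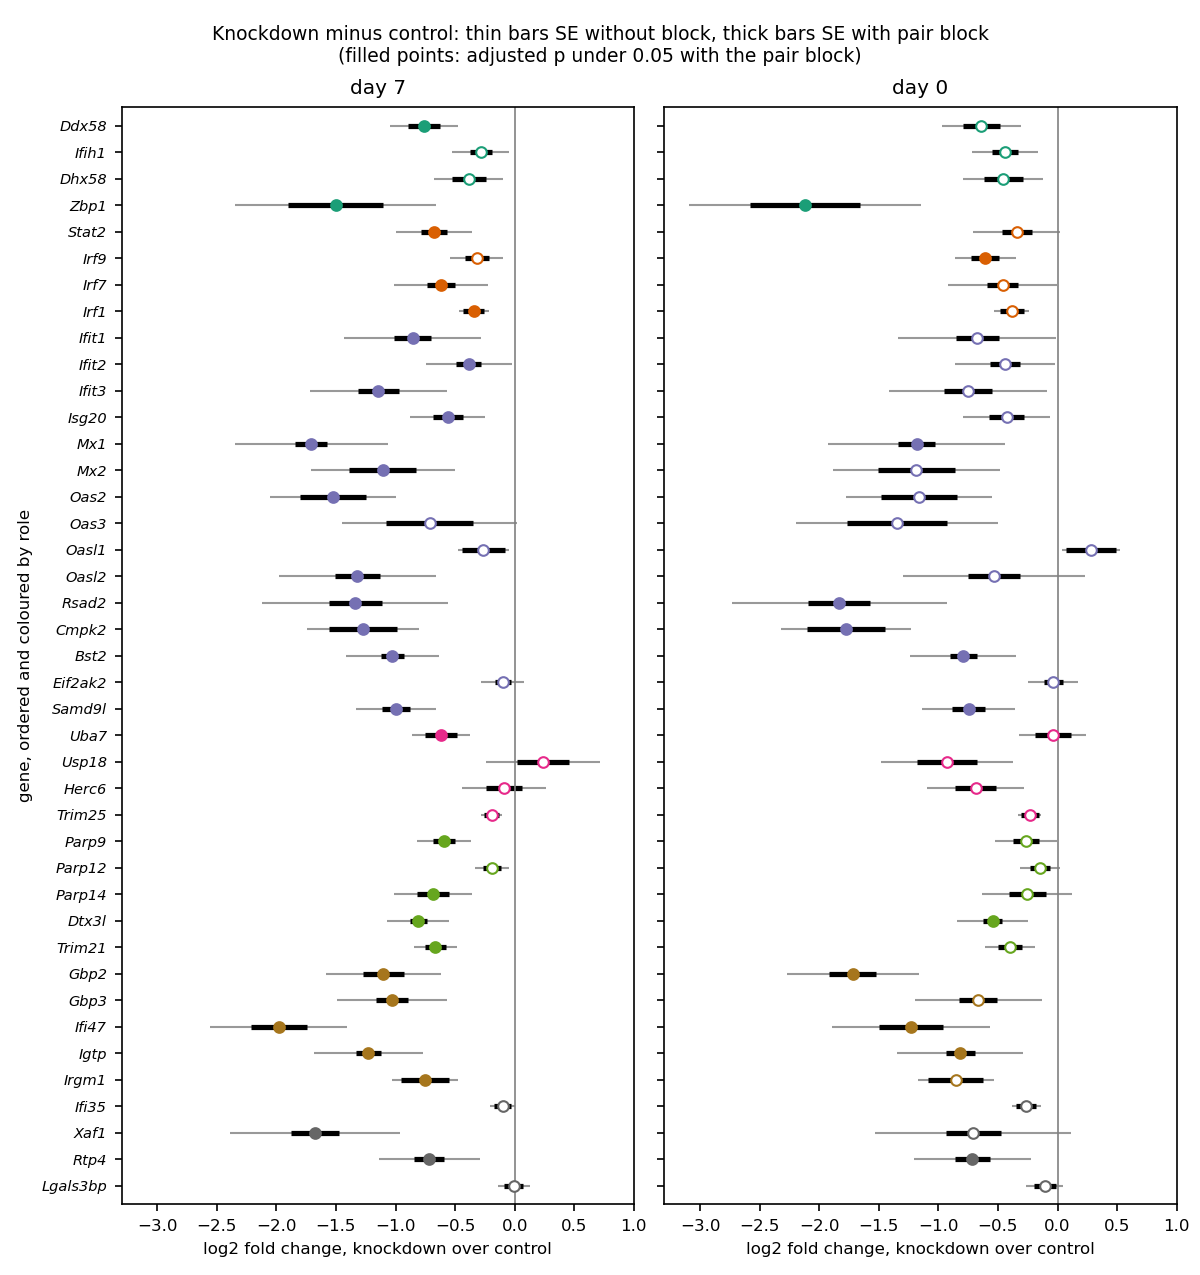
Log2 fold change, knockdown over control, at day 7 (left) and day 0 (right) for the 41 genes, ordered and coloured by role. Thin bars are the SE of the fit without a block, thick bars the SE with the pair block, and filled points mark the 29 genes at day 7 and the 12 at day 0 with an adjusted p under 0.05 in the fit with the pair block.

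Sensors of viral nucleic acid were lower in knockdown cells at both days for 4 of 4 genes, with a median log2 fold change of -0.57 at day 7 and -0.55 at day 0. None of the 4 was called without a block. With the pair block 2 were called lower at day 7 (Ddx58 and Zbp1; 7.2% of all genes were) and 1 at day 0 (Zbp1; 3.4%). Zbp1, a sensor of left-handed nucleic acid that can start cell death, had the lowest day 0 fold change of the 41 genes. It was at 4.68, 3.99, 7.21 and 3.87 in knockdown arrays 1 to 4 at day 7, against 5.15, 5.28, 8.59 and 6.74 in control arrays. Day 0 levels were 6.12, 6.93 and 8.38 in knockdown arrays, against 9.21, 8.99 and 9.57 in control arrays. The day 0 groups did not overlap, whereas at day 7 knockdown array 3 lay above 3 of the 4 control arrays. The log2 fold change of Zbp1 was -1.50 at day 7 (SE 0.84, adjusted p = 0.316; 0.0437 with the pair block) and -2.12 at day 0 (SE 0.97, adjusted p = 0.322; 0.0462 with the block). Ddx58, which encodes the RNA sensor RIG-I, had log2 fold changes of -0.76 ± 0.29 at day 7 (adjusted p = 0.13; 0.0117 with the block) and -0.64 ± 0.33 at day 0 (0.387; 0.0591). Ifih1, the sensor of long double-stranded RNA known as MDA5, and Dhx58, a regulator of both sensors known as LGP2, were not called in any of these 4 tests, with log2 fold changes of -0.28 and -0.39 at day 7 and -0.44 and -0.46 at day 0. A dimmer probe set of Zbp1, with a mean of 5.55, had -0.37 ± 0.40 at day 7 and -1.12 ± 0.46 at day 0. In a limma fit of every probe set without a block, its adjusted p was 0.694 and 0.234.

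The 4 transcription factors of the response had a median log2 fold change of -0.48 at day 7 and -0.42 at day 0. Stat2 and Irf9, both parts of ISGF3, had log2 fold changes of -0.68 and -0.32 at day 7 and of -0.34 and -0.61 at day 0. Irf7, which amplifies type I interferon production, had -0.62 at day 7 and -0.46 at day 0, and Irf1, which is induced by type II interferon in particular, had -0.34 and -0.39. None of the 4 was called without a block. With the pair block Stat2 (adjusted p = 0.00907), Irf7 (0.0142) and Irf1 (0.0386) were called lower at day 7 and Irf9 (0.0316) at day 0. Irf9 was the only gene called with the block at day 0 and not at day 7 (adjusted p = 0.0725); its difference between the days was not called.

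Among the 15 direct antiviral effectors the median log2 fold change was -1.03 at day 7 and -0.75 at day 0. None was called without a block, and with it 12 were called lower at day 7 (7.2% of all genes were) and 5 at day 0 (3.4%). Mx1 and Mx2 encode dynamin-like GTPases that trap incoming viral particles or nucleocapsids. Mx1 was at 5.56, 6.05, 8.38 and 6.37 in knockdown arrays 1 to 4 at day 7, against 7.28, 7.45, 9.92 and 8.53 in control arrays. At day 0 Mx1 was at 8.83, 8.98 and 9.95 in knockdown arrays and at 9.90, 10.44 and 10.96 in control arrays. Groups overlapped on both days through knockdown array 3, yet Mx1 was lower in the knockdown array of 7 of 7 pairs. Fitted over the groups, Mx1 was 3.27-fold lower at day 7, with a log2 fold change of -1.71 (SE 0.64, adjusted p = 0.13; 0.00208 with the pair block), and 2.27-fold lower at day 0, with -1.18 (SE 0.74, adjusted p = 0.5; 0.01 with the block).

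For Mx2 the knockdown arrays 1 to 4 of day 7 gave 3.51, 4.15, 6.31 and 3.48, against 4.67, 4.49, 6.92 and 5.79 in control arrays. The day 0 values were 7.01, 7.01 and 7.03 in knockdown arrays and 8.05, 8.36 and 8.21 in control arrays. The 3 knockdown arrays of day 0 were thus nearly level and lay apart from the controls, while at day 7 the groups overlapped. Fitted over the groups, the log2 fold change of Mx2 was -1.11 ± 0.61 at day 7 (adjusted p = 0.304; 0.038 with the block) and -1.19 ± 0.70 at day 0 (0.463; 0.0846).

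The OAS proteins make the second messenger that activates the RNA-cutting enzyme RNase L, and the OAS-like proteins are their relatives. Oas2 was at 5.99, 5.97, 7.56 and 6.16 in knockdown arrays 1 to 4 at day 7, against 6.78, 6.93, 9.37 and 8.70 in control arrays. Its day 0 levels were 8.95, 9.51 and 9.62 in knockdown arrays and 10.53, 10.51 and 10.52 in control arrays. Control arrays of day 0 were nearly level and lay above all knockdown arrays, and at day 7 knockdown array 3 overlapped the controls. For Oas2 the log2 fold change was -1.53 ± 0.53 at day 7 (adjusted p = 0.103; 0.0133 with the block) and -1.16 ± 0.61 at day 0 (0.398; 0.0864). Oasl2 was at 7.18, 7.19, 10.13 and 7.82 in knockdown arrays 1 to 4 at day 7 and at 8.36, 8.41, 10.92 and 9.91 in control arrays. Day 0 levels were 11.07, 11.28 and 11.81 in knockdown arrays and 11.89, 11.76 and 12.12 in control arrays. Groups overlapped on both days, and the log2 fold change of Oasl2 was -1.32 ± 0.66 at day 7 (adjusted p = 0.253; 0.00681 with the block) and -0.53 ± 0.76 at day 0 (0.813; 0.217).

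Oas3 and Oasl1 were dim, and RMA, the authors' summary method, compresses differences at the bottom of the scale. Some day 7 knockdown arrays of other genes were as low: Mx2 (3.51 and 3.48), Cmpk2 (3.57 and 3.96) and Zbp1 (3.99 and 3.87). The day 7 log2 fold changes of Mx2, Cmpk2 and Zbp1 carry the same limit. Oas3, whose window is printed above, was at 3.20, 2.90, 4.56 and 3.80 in knockdown arrays 1 to 4 at day 7, against 3.25, 3.19, 6.60 and 4.29 in control arrays. Preadipocytes had 3.95, 3.70 and 6.03 in knockdown arrays and 5.16, 6.0 and 6.57 in control arrays. Knockdown minus control was -0.05, -0.29 and -0.49 in pairs 1, 2 and 4 of day 7 and -2.04 in pair 3, and without control array 3 the day 7 log2 fold change was 0.04 in place of -0.71. Oas3 was not called on either day with or without the block (log2 fold change at day 0 -1.35 ± 0.85). Oasl1 lay between 2.42 and 3.37 in all 14 arrays, and was the gene with a day 0 fold change above 0, at 0.28 ± 0.25 (adjusted p = 0.658).

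Rsad2 encodes viperin, which turns a nucleotide into a chain terminator of viral RNA synthesis, and its neighbour Cmpk2 encodes a mitochondrial nucleotide kinase that makes the nucleotide viperin uses. Rsad2 was at 5.89, 6.56, 9.52 and 6.59 in knockdown arrays 1 to 4 at day 7, against 7.37, 7.47, 10.37 and 8.70 in control arrays. At day 0 Rsad2 was at 8.87, 8.97 and 10.24 in knockdown arrays and at 10.75, 11.24 and 11.59 in control arrays. Knockdown and control did not overlap at day 0 and overlapped at day 7 through knockdown array 3. The log2 fold change of Rsad2 was -1.34 at day 7 (SE 0.78, adjusted p = 0.339; 0.0104 with the block) and -1.83 at day 0 (SE 0.90, adjusted p = 0.362; 0.0125 with the block). Cmpk2 was at 3.57, 4.40, 5.92 and 3.96 in knockdown arrays 1 to 4 at day 7, against 5.31, 4.99, 6.50 and 6.13 in control arrays. Its day 0 levels were 5.36, 5.39 and 6.48 in knockdown arrays and 7.35, 7.48 and 7.72 in control arrays. Again the day 0 groups lay apart and the day 7 groups overlapped. For Cmpk2 the log2 fold change was -1.27 ± 0.47 at day 7 (adjusted p = 0.124; 0.0252 with the block) and -1.78 ± 0.54 at day 0 (0.131, the lowest of the 41 genes on that day; 0.0294 with the block). A dimmer probe set of Cmpk2, with a mean of 3.92, had a day 0 log2 fold change of 0.12.

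**Figure D5:**
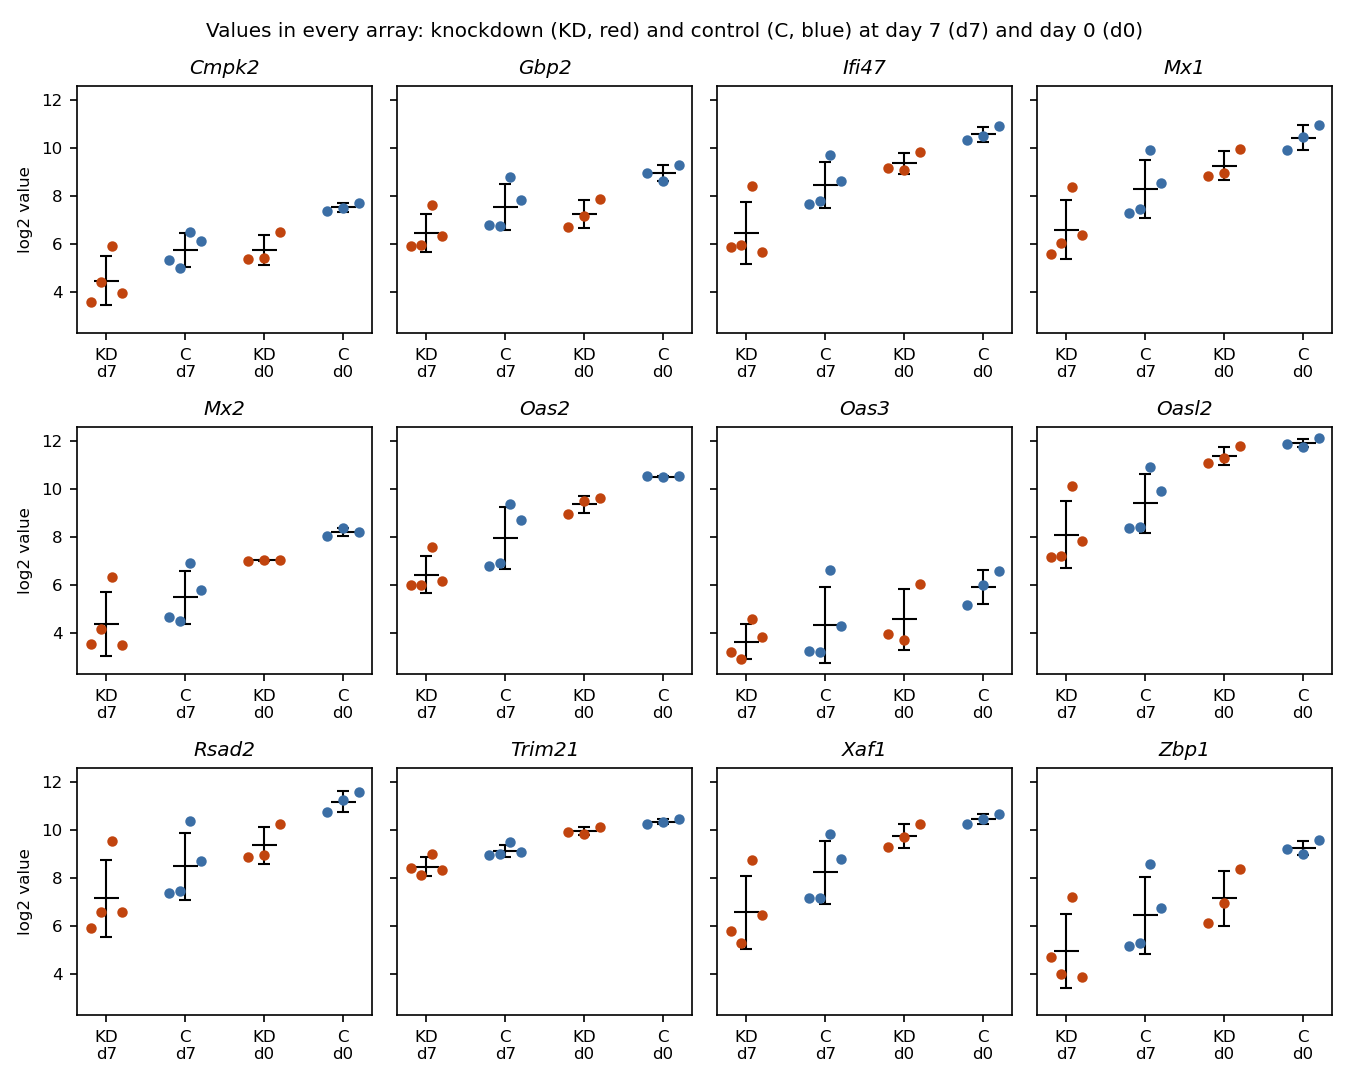
Log2 values in every array for the 12 genes whose knockdown differences are described array by array. Red points are knockdown (KD) and blue points control (C) arrays, at day 7 (d7) and day 0 (d0), in replicate order from left to right; black bars are the mean and SD of a group of 4 (day 7) or 3 (day 0) arrays. The number 3 array tops both day 7 groups in all 12 panels.

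The IFIT proteins bind viral RNA that lacks the host's cap marks. Ifit1, Ifit2 and Ifit3 had log2 fold changes of -0.86, -0.39 and -1.14 at day 7 and of -0.67, -0.44 and -0.75 at day 0; with the pair block all 3 were called lower at day 7 (adjusted p from 0.00782 to 0.0488) and none at day 0. Bst2, or tetherin, which holds budding virus at the cell surface, had -1.03 ± 0.39 at day 7 (adjusted p = 0.13; 0.00249 with the block) and -0.79 ± 0.45 at day 0 (0.438; 0.0126). Samd9l, a restriction factor of poxviruses, had -1.0 ± 0.34 and -0.75 ± 0.39 (adjusted p = 0.0934 and 0.391; 0.00425 and 0.0303 with the block). Isg20, an RNA exonuclease, had -0.56 and -0.43 and was called with the block at day 7 (0.0243). Eif2ak2, the kinase PKR that halts translation on double-stranded RNA, differed little, with -0.10 ± 0.18 at day 7 and -0.04 ± 0.21 at day 0, although the knockdown array was the lower in 7 of 7 pairs.

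ISG15 is a ubiquitin-like protein that is attached to other proteins. Uba7, the enzyme that activates it, had a log2 fold change of -0.62 ± 0.24 at day 7 (adjusted p = 0.144; 0.021 with the block) and of -0.04 ± 0.28 at day 0. Usp18, which removes ISG15 and dampens signalling at the type I receptor, was the gene with a positive day 7 value, 0.24 ± 0.48 (adjusted p = 0.825). It was higher in the knockdown array of day 7 pairs 1, 2 and 4 (by 0.59, 0.73 and 0.27) and lower in pair 3 (-0.63), whereas at day 0 it was lower in all 3 pairs and had -0.93 ± 0.56 (adjusted p = 0.472; 0.0845 with the block). Herc6, the ligase that attaches ISG15 in mice, and Trim25, a ubiquitin ligase of the RIG-I pathway, were not called in any of these fits. Herc6 had -0.09 at day 7 and -0.69 at day 0, and Trim25 had -0.19 and -0.23.

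The enzymes of ADP-ribosylation and ubiquitin transfer had a median log2 fold change of -0.67 at day 7 and -0.26 at day 0. Trim21 encodes a cytosolic antibody receptor and ubiquitin ligase that marks antibody-coated virus for destruction. It was at 8.41, 8.12, 9.02 and 8.33 in knockdown arrays 1 to 4 at day 7, against 8.97, 8.99, 9.52 and 9.07 in control arrays. Preadipocytes had 9.90, 9.82 and 10.15 in knockdown arrays and 10.24, 10.34 and 10.47 in control arrays. Trim21 was lower in 7 of 7 pairs, and knockdown array 3 of day 7 was the only knockdown array within the range of its controls of the same day. Trim21 was 1.59-fold lower at day 7, with a log2 fold change of -0.67 ± 0.18 (adjusted p = 0.0457; 0.00503 with the block), and had -0.40 ± 0.21 at day 0 (0.39; 0.068). Dtx3l and Parp9, which act as a complex, had -0.81 and -0.59 at day 7 (adjusted p = 0.0774 and 0.134; 0.00209 and 0.00865 with the block) and -0.54 and -0.26 at day 0 (0.0153 and 0.215 with the block). A dimmer probe set of Dtx3l had 0.34 at day 0. The dimmer probe set of Trim21, with a mean of 6.04, had -0.28 ± 0.23 at day 7 and -0.39 ± 0.27 at day 0. In a limma fit of every probe set without a block, its adjusted p was 0.582 and 0.525. Parp14, another ADP-ribosyltransferase, had -0.68 at day 7 (0.0163 with the block) and -0.25 at day 0, and Parp12 had -0.19 and -0.15 and was not called.

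The 5 interferon-inducible GTPases belong to families with members that attack the membranes around intracellular microbes. All 5 were called lower with the pair block at day 7 (7.2% of all genes were), and 3 of them at day 0 (3.4%). Gbp2, whose window is printed above, was at 5.89, 5.94, 7.61 and 6.32 in knockdown arrays 1 to 4 at day 7, against 6.79, 6.76, 8.80 and 7.81 in control arrays. At day 0 Gbp2 was at 6.68, 7.15 and 7.87 in knockdown arrays, against 8.97, 8.60 and 9.30 in control arrays. The day 0 groups lay apart, and in day 7 cells array 3 of the knockdown lay within the control range. For Gbp2 the log2 fold change was -1.10 ± 0.48 at day 7 (adjusted p = 0.186; 0.00782 with the block) and -1.72 ± 0.55 at day 0 (0.153; 0.00676). Its other probe set gave -2.13 at day 0. Ifi47 was at 5.88, 5.93, 8.40 and 5.65 in knockdown arrays 1 to 4 at day 7, against 7.67, 7.77, 9.71 and 8.64 in control arrays. At day 0 Ifi47 was at 9.16, 9.07 and 9.84 in knockdown arrays and at 10.33, 10.49 and 10.93 in control arrays. Of its knockdown arrays, 3 of the 4 at day 7 and all 3 at day 0 lay below every control array. Ifi47 was 3.95-fold lower at day 7, with the lowest log2 fold change of the 41 genes on that day, -1.98 ± 0.58 (adjusted p = 0.0594; 0.00413 with the block), and had -1.23 ± 0.67 at day 0 (0.414; 0.0472). Igtp, Gbp3 and Irgm1 had -1.23, -1.03 and -0.75 at day 7 (0.00208, 0.00541 and 0.0441 with the block) and -0.82, -0.66 and -0.85 at day 0, where Igtp alone of these was called (0.0146).

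Of the other genes, Xaf1, which opposes an inhibitor of cell death, was at 5.78, 5.29, 8.74 and 6.43 in knockdown arrays 1 to 4 at day 7, against 7.16, 7.16, 9.82 and 8.80 in control arrays. Its day 0 levels were 9.28, 9.72 and 10.25 in knockdown arrays and 10.24, 10.48 and 10.66 in control arrays. Array 3 of the knockdown overlapped the controls on both days. For Xaf1 the log2 fold change was -1.68 ± 0.71 at day 7 (adjusted p = 0.175; 0.00416 with the block) and -0.71 ± 0.82 at day 0 (0.761; 0.128). A dimmer probe set of Xaf1, with a mean of 4.89, gave the days in the other order, with -0.48 ± 0.24 at day 7 (adjusted p = 0.296) and -2.18 ± 0.27 at day 0 (0.00192). In that fit of every probe set, without a block, it was the 1 probe set of a member called in a knockdown comparison. Rtp4, a chaperone of cell surface receptors, had -0.72 and -0.71 and was called with the block on both days (0.012 and 0.0384). Ifi35 and Lgals3bp, both at high levels (11.62 to 12.81 over the 14 arrays), differed by at most 0.26 and were not called.

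The size of the knockdown difference was compared between the days as day 7 minus day 0. By limma 0 of the 41 genes were called (0.022% of all genes were), and 0 had an unadjusted p under 0.05 (4.69% of all genes were lower at that level). With the pair block again 0 were called (1.08% of all genes). At an unadjusted p under 0.05, 6 were lower with the block (7.3% of all genes were) and 3 higher. Values ran from -0.97 for Xaf1 to 1.17 for Usp18, whose adjusted p was 0.535 without a block and 0.114 with it. The sign for Xaf1 depended on the probe set, since its dimmer probe set had 1.71 ± 0.36 (adjusted p = 0.0692). The median was -0.12, and it ranged from -0.44 to 0.11 when single arrays were left out, so its sign rested on single arrays. Without both number 3 arrays of day 7 and with the block, Usp18 was called. A fold change called on 1 day only is not shown to differ between days.

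Ligands, receptors and signalling genes upstream were examined in a further list of 25, of which 21 were measured. At day 7, 2 of the 21 were called lower (3.57% of all genes were) and 1 higher. Lower were Tyk2 (-0.48 ± 0.13, adjusted p = 0.0426) and Adar (-0.45 ± 0.12, 0.0458), the RNA-editing enzyme that masks the cell's own double-stranded RNA. Higher was Ifngr1 (0.70 ± 0.16, 0.0243), the ligand-binding chain of the type II receptor. Ifngr1 was at 10.30, 10.26, 9.86 and 10.21 in knockdown arrays 1 to 4 of day 7, against 9.51, 9.47, 9.42 and 9.42 in control arrays, with no overlap. With the block Socs3, a feedback inhibitor of cytokine receptors (-0.84, adjusted p = 0.00208), and Tlr3, a sensor of double-stranded RNA in endosomes (-0.47, 0.0333), were lower as well. In all, 4 of the 21 were called lower with the block at day 7 (7.2% of all genes were). At day 0 none of the 21 was called (1.34% of all genes were called lower), with 1 lower at an unadjusted p under 0.05 (11.0% of all genes). With the block Socs3 alone was called at day 0 (-0.40, adjusted p = 0.0338), while 3.4% of all genes were called lower. Receptor chains Ifnar1, Ifnar2 and Ifngr2 were not called on either day, with log2 fold changes between -0.27 and 0.11. Probe sets of Ifnb1 and Ifng, the genes of interferon beta and gamma, stayed between 2.04 and 3.61 in all 14 arrays, near the bottom of the scale.

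A list of 25 other interferon-responsive genes, of which 22 were measured, had median log2 fold changes of -0.51 at day 7 and -0.42 at day 0. Without a block 1 was called lower on each day, against 3.57% of all genes at day 7 and 1.34% at day 0. These were Ifitm1, which blocks virus entry, at day 7 (-1.84 ± 0.46, adjusted p = 0.0338) and the GTPase Iigp1 at day 0 (-1.53 ± 0.31, 0.0304). Iigp1 was at 8.46, 8.52 and 9.08 in day 0 knockdown arrays and at 10.31, 10.36 and 9.99 in controls, without overlap. With the block 12 were called lower at day 7 (7.2% of all genes) and 5 at day 0 (3.4%), and none higher. Both lists were drawn up with earlier results of these data known.

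Differentiation went with lower levels of these genes in both populations. From a fit without a block, 29 of the 41 genes were called lower at day 7 than at day 0 in knockdown cells (16.8% of all genes) and 32 in control cells (12.8%), with 0 higher in either. The median log2 fold change, day 7 over day 0, was -1.58 in knockdown cells and -1.65 in control cells, with Oasl1 in control cells the exception above 0. All day 7 arrays lay below all day 0 arrays for 31 of the 41 genes in knockdown cells (18.0% of all genes) and for 34 in control cells (18.6%). Of the 41 genes 26 were called in both populations and 6 in neither: Eif2ak2, Gbp2, Herc6, Isg20, Oas3 and Oasl1. No share of all genes called in both or in neither is given, so these joint counts are not a result about the members. Markers of cell types were called in the same comparison: 3 of 5 measured adipocyte markers were higher in each population, and 4 of 5 preadipocyte markers were lower in knockdown cells and 3 in control cells. Of 10 macrophage markers Tyrobp was called higher and Aif1 and Lyz2 lower in knockdown cells and 0 in control cells, and of 2 measured lymphocyte markers Cd79a was called lower in control cells. Their part in the lower levels at day 7 was not tested.

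The 6 genes with the largest decrease among those called in knockdown cells were Ifit3, Oasl2, Xaf1, Oas2, Ifi47 and Gbp3. Ifit3 was at 6.86, 6.80, 9.29 and 7.10 in knockdown arrays of day 7, against 10.50, 10.88 and 11.48 at day 0, and at 7.81, 7.86, 10.05 and 8.91 in control arrays of day 7, against 11.47, 11.78 and 11.87 at day 0. The day 7 arrays lay below the day 0 arrays in both populations. Ifit3 was 10.9-fold lower at day 7 than at day 0 in knockdown cells and 8.28-fold lower in control cells. Its log2 fold change, day 7 over day 0, was -3.44 ± 0.62 in knockdown cells (adjusted p = 0.000752) and -3.05 ± 0.62 in control cells (0.00354). In knockdown cells Oasl2 had -3.31, Xaf1 -3.19, Oas2 -2.94, Ifi47 -2.89 and Gbp3 -2.71 (adjusted p from 0.000898 to 0.00536). In control cells the 6 with the largest decrease were Ifit3, Zbp1 (-2.82), Mx2 (-2.74), Rsad2 (-2.71), Oas2 (-2.58) and Oasl2 (-2.52), with adjusted p from 0.00354 to 0.0414. With replicates 1 and 2 averaged the counts were 18 in knockdown cells (10.0% of all genes) and 9 in control cells (4.62%). In control cells 20 or 21 were called without control array 1, 2 or 3 of day 0 or control array 1 or 2 of day 7 (9.18% to 10.0% of all genes), and 39 without control array 3 of day 7 (12.6%). Without both number 3 arrays of day 7 the counts were 39 in knockdown cells (18.6%) and 40 in control cells (14.3%).

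Markers of other cell types were looked at in the same arrays. The macrophage markers Ptprc, Adgre1, Itgam and Tyrobp, 4 of 10 on the list, lay between 1.93 and 3.62 in all 14 arrays, near the bottom of the scale. Others were higher: Csf1r lay between 7.27 and 9.88, Cd68 between 5.99 and 7.12, Fcer1g between 5.36 and 6.79, Lyz2 between 4.52 and 5.58, Aif1 between 3.48 and 6.49 and Laptm5 between 3.55 and 4.15. The summed log2 level of the 10 markers was 42.55 to 48.23 in knockdown and 46.06 to 46.99 in control arrays at day 7, and 45.75 to 48.33 and 46.84 to 48.45 at day 0. None of the 10 was called in a knockdown comparison. None of 4 endothelial and 2 measured lymphocyte markers was called there either. Of the 5 preadipocyte markers Pdgfra was called lower in knockdown cells at day 7 (-0.49 ± 0.13, adjusted p = 0.0436). The mean over the 5 measured adipocyte markers was 9.93 to 10.61 in knockdown arrays and 9.20 to 10.13 in control arrays of day 7, with none called. Whether these levels bear on the day 7 differences was not tested.

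Of the 41 genes, 17 had further probe sets, 26 in all. Of the 26, 21 at day 7 and 22 at day 0 had the same sign of knockdown minus control as the probe set used. An opposite sign was seen at day 7 in Dhx58, Eif2ak2, Herc6 and Trim25 and at day 0 in Cmpk2, Dtx3l, Stat2 and Uba7.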

How the data were processed

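RNA of 14 samples of 3T3-L1 cells was measured on Affymetrix expression arrays, 1 array per sample. The values are log2 expression values, deposited by the authors, who per the submitters' processing notes used RMA (background correction, quantile normalization and probe set summary) in the affy package (version: not given in the sources used here). RMA compresses differences of dim probe sets, no detection call was used, and precision is set by having 3 or 4 arrays a group. The table holds 45101 probe sets, with array medians from 5.44 to 5.57. Of these, 34945 carry 1 gene symbol, and the probe set with the highest mean stood for each of 18193 genes. Groups were taken from the labels.

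A model of 4 group means was fitted to all 14 arrays with limma 3.58.1 (lmFit and eBayes, R 4.3.3), with Benjamini-Hochberg adjustment over 18193 genes and a threshold of 0.05. The procedure was run on simulated data to check its fold change estimates. That simulation held no shift shared by the genes of an array and no close replicates, so it does not bear on calls under those conditions. Knockdown differences are described array by array for Mx1 and Rsad2, for members called in a knockdown comparison and for the 8 with the largest fold change on each day; for differentiation, the 6 with the largest decrease among those called (0 were called higher). Genes outside the list are named where called, or as receptor chains, ligands or markers; Socs3, Tlr3, Ifnb1, Ifng, single probe sets and the array values of Ifit3 and Iigp1 were chosen after their values were seen.

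Pairing rests on the replicate numbers alone. Deviations of same-numbered arrays of a day correlated at 0.187 to 0.59, above 0.1 in 7 of 7 pairs, and across days at 0.032 to 0.21. Arrays of a day with different numbers were not correlated, so this check cannot show that the numbers mark pairs. The block within each day was chosen after seeing the data, as was leaving out both number 3 arrays of day 7. Other alternatives covered the block across days, the choice of probe set, normalization, dim genes, the variance prior and leaving out each array. The members and all lists were chosen with earlier results of these data known, so no test of a list is given.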

Additional observations from a re-analysis of the deposited data

Results flagged for a closer look

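In the groups of 4 arrays at day 7, 1 array stood far from the other 3 in 10 of 82 combinations of gene and group. The measure is the gap of the highest or lowest array to its nearest neighbour divided by the group's range, set against Dixon's 95% critical value for 4 values, which chance passes in about 1 of 20 groups. In knockdown cells array 3 was the high array each time. The measure was 0.956 for Parp14, 0.939 for Stat2, 0.917 for Herc6 and 0.896 for Ifi47. It was 0.885 for Ifit1, 0.884 for Oas2, 0.878 for Ifit3, 0.872 for Eif2ak2 and 0.835 for Irgm1. In control cells Isg20 passed the limit with 0.865, again with array 3 the highest. The genes were measured on the same arrays, so these are not separate events.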

How the results depend on the processing

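The median log2 fold change of the 41 genes stayed below 0 under every alternative run, between -1.03 and -0.41 for knockdown at day 7, -0.79 and -0.47 at day 0, -1.88 and -1.34 for differentiation in knockdown cells and -1.95 and -1.49 in control cells. The median difference between the days, from -0.44 to 0.11, did not. Counts of called genes moved more. For knockdown at day 7 (1 called), the replicate block across days gave 12 and the block within each day 29 (7.2% of all genes). The block within each day gave 8 with replicates 1 and 2 averaged (0.967%) and 25 without both number 3 arrays (7.1%). Leaving out both number 3 arrays with no block gave 19 (6.68%). Leaving out the dimmest 40% of genes gave 3 and a trended, robust prior 2. The count was 0 with only the arrays compared, with replicates 1 and 2 averaged, with the mean over probe sets, the probe set of largest interquartile range, every probe set, and arrays shifted to 1 median. Leaving out single arrays gave 0 to 24. At day 0 (0 called), the replicate block across days gave 2 and only the arrays compared 3. The block within each day gave 12 (3.4% of all genes), leaving out both number 3 arrays 6 (2.81%) and both together 13 (3.02%). Single arrays left out gave 0 to 1. No share of all genes is given for the block across days, the dimmest genes left out, the prior or only the arrays compared. Counts in those settings are therefore not a result about the members. The difference between the days had 1 call with the block and without both number 3 arrays. For differentiation, averaging replicates 1 and 2 gave 18 in knockdown cells and 9 in control cells, and single arrays left out gave 20 to 39 in control cells. Over all genes, the split of higher and lower calls at day 0 was 85 and 243, against 262 and 111 with arrays shifted to 1 median and 115 and 125 with quantile normalization. Of 670 recomputed values of single genes, 669 kept their direction; Oas3 at day 7 ranged from -1.096 to 0.041 with single arrays left out, the highest value without control array 3. Fewer samples enter the fits that average or leave out arrays; for the other settings the cause was not tested.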
